A study of Mus musculus with 6 samples.

Results

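The genes described here are the transcription factors that build and maintain skeletal muscle: the Pax factors Pax3 and Pax7, the myogenic basic helix-loop-helix (bHLH) factors Myf5, Myf6, Myod1 and Myog, and the MEF2 factors Mef2a, Mef2c and Mef2d. These 9 genes were chosen by name. Their probes were found by matching the transcript accession of every probe that is not a control to a mouse gene table, which gave 13 of the 56605 probes of the array. For 8 of the 9 genes at least 1 probe was well above background on 3 or more arrays, and these 8 were tested among 25005 genes and transcripts in all. RNA came from the quadriceps muscle of 3 exercised and 3 sedentary male mice of the AR97Q line, aged 9 weeks, and each mouse had its own array. AR97Q mice carry a human androgen receptor transgene with an expanded CAG repeat on a C57BL/6J background and model SBMA, a muscle and motor neuron disease. The exercise group had run on a forced wheel at low to moderate intensity during the weeks before sampling, whereas the sedentary group had not, and both groups carried the transgene. No arrays of wild-type mice were used here, the transgene's promoter is not given in the sources used here, and the tissue is whole muscle.

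As background, Pax7 marks satellite cells, the stem cells of adult muscle, and Pax3 marks their embryonic precursors and a part of the adult pool. Myf5 and Myod1 commit these cells to the muscle lineage, Myog drives their fusion and differentiation and rises again in fibres that lose their nerve, and Myf6 is the bHLH factor of mature fibres. The bHLH factors pair with E proteins and bind the E-box CANNTG. MEF2 factors bind an A/T-rich site that contains CTANNNNTA, act together with the bHLH factors, and are held back by class IIa histone deacetylases such as Hdac4. Calcium signals release MEF2 factors from this hold, and p38 kinases phosphorylate MEF2 factors.

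Each value is the log2 of the background-subtracted spot brightness relative to the 75th percentile of the same array, so a value of 0 is that percentile. Values of different probes were not compared with each other. The unscaled 75th percentile was 251 to 257 on the exercise arrays and 310 to 384 on the sedentary arrays, and 54.6 to 59.9% of the probes were well above background. All arrays lay on 1 slide. One strip of it held exercise mice 1 to 3 together with sedentary mouse 1, and the other strip held sedentary mice 2 and 3. Values against sedentary mouse 1 alone are therefore given as the within-strip comparison. Every one of the 10 skeletal muscle fibre markers was above background on all 6 arrays, which fits the tissue label. The labels call the mice of a group replicates, and precision is limited by having 3 of them per group.

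Across the 8 factors that could be tested, Pax7 was lower in the exercise group, and no other factor passed the test. Limma called 1 factor lower and 0 higher at an adjusted p under 0.05, against 6.12% of everything tested called lower and 11.5% called higher. An unadjusted limma p under 0.05 was reached by 4 of the 8 factors, Pax7 and Myog as lower and Mef2c and Mef2d as higher. It was also reached by 9249 of the 25005 genes and transcripts tested. No factor was both called and beyond 1 on the log2 scale, the size that the study's threshold also asks for, against 1.06% of everything tested for lower and 1.72% for higher values. For Pax7 and Myog the highest exercise value was below the lowest sedentary value, a separation seen for 18.2% of everything tested. For the 3 MEF2 factors the separation ran the other way, as for 25.0%.

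**Figure D1:**
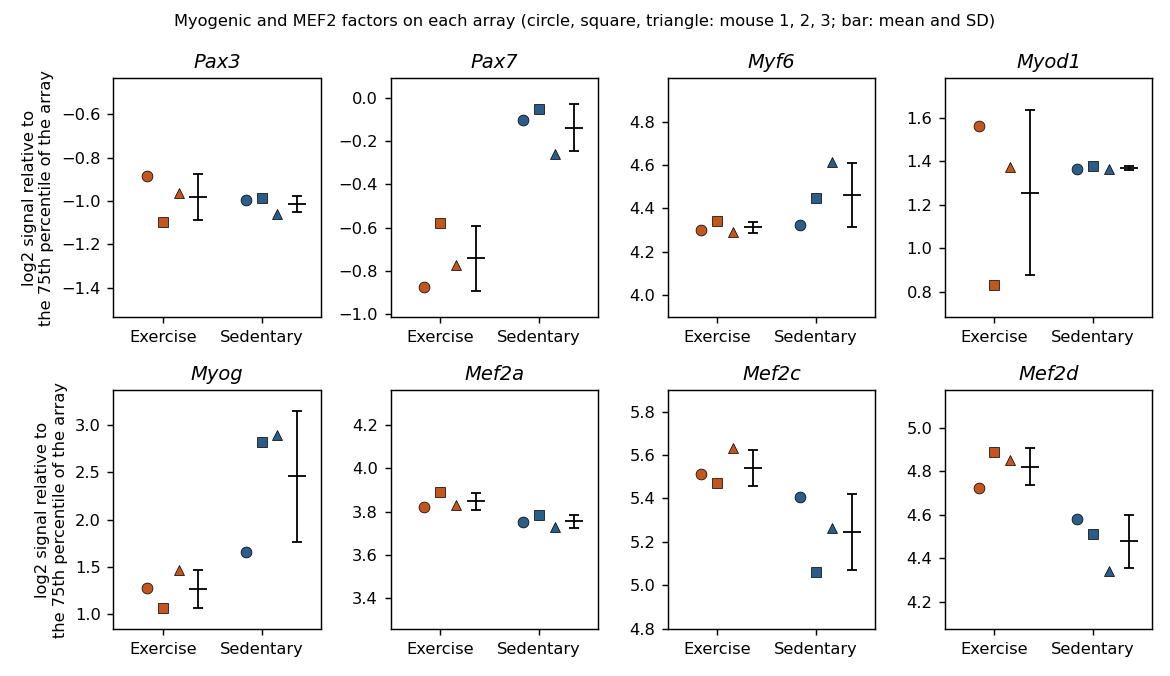
Log2 signal relative to the 75th percentile of the array (y axis) for 8 factors in the exercise and sedentary groups, 1 point per mouse, with the mean and SD of the 3 mice beside them. Pax7 and Myog sit lower in every exercise mouse, and the sedentary Myog values are split between mouse 1 at 1.66 and mice 2 and 3 at 2.81 and 2.89.

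Pax7 had processed signals of 140, 172 and 147 in exercise mice 1 to 3 and of 289, 357 and 321 in sedentary mice 1 to 3. On the scaled log2 axis these were -0.87, -0.58 and -0.77 in the exercise group and -0.10, -0.05 and -0.26 in the sedentary group. The groups were separated by 0.32 between the highest exercise and the lowest sedentary array, and each group spread over less than that. Mean Pax7 was -0.74 ± 0.15 (SD, n = 3) with exercise and -0.14 ± 0.11 (SD, n = 3) without, a difference of -0.60 ± 0.11 (SE; limma adjusted p = 0.0255), or 34.2% less signal. The difference was -0.64 against sedentary mouse 1, on the same strip, and -0.59 against the other two. Pax7 was lower in the exercise group under all 19 alternative settings, between -1.08 and -0.48, and passed the threshold in 11 of them. The call was kept without sedentary mouse 1 (limma adjusted p = 0.0363) and lost when exercise mouse 1, 2 or 3 or sedentary mouse 2 or 3 was left out, with a difference of -0.69 to -0.54 and an adjusted p of 0.0585 to 0.101, and with strip as a block the adjusted p was 0.172. Over everything tested, limma called 2060 of 25005 lower and 3476 higher without sedentary mouse 1. Without any one of the other arrays, at most 1 was called lower and 0 higher. In whole muscle, fewer Pax7-expressing cells and less Pax7 RNA per cell cannot be told apart.

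Pax3, the relative of Pax7, gave values of -0.88, -1.10 and -0.96 in the exercise group and -0.997, -0.987 and -1.06 in the sedentary group. The groups overlapped, and the difference of 0.03 had a 95% interval from -0.19 to 0.25 (limma adjusted p = 0.815).

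Myog showed the widest difference of the family and also the widest spread. Its processed signal was 624, 536 and 693 in the exercise mice and 982, 2604 and 2847 in the sedentary mice, and the scaled log2 values were 1.28, 1.07 and 1.47 against 1.66, 2.81 and 2.89. The groups did not overlap, but sedentary mouse 1 lay only 0.19 above the highest exercise array and 1.15 below the next sedentary array. The mean was 1.27 ± 0.20 (SD, n = 3) with exercise and 2.46 ± 0.69 (SD, n = 3) in sedentary mice, 2.27-fold higher in the latter. The difference of -1.18 ± 0.34 (SE) did not pass the threshold (limma adjusted p = 0.0603), and its 95% interval ran from -2.01 to -0.36. Within the strip, against sedentary mouse 1, the difference was -0.39, and with strip as a block it had an adjusted p of 0.309. Without the array of sedentary mouse 1 the difference was -1.58 (limma adjusted p = 0.00902). The direction was negative in all 19 alternative settings, and the threshold was passed in 7.

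Promoter windows of these genes were read from RefSeq (GRCm38.p6, 250 bases before to 50 bases after the start of transcription), which list 6 of the 9 factors. Those of Myog and Pax7 are shown because these factors had the largest differences, on the strand of the gene, 5′ to 3′. Capitals mark the E-box CANNTG, which reads alike on both strands, and the MEF2-type CTANNNNTA on either strand.
Myog, chr1:134289754-134290053, plus strand: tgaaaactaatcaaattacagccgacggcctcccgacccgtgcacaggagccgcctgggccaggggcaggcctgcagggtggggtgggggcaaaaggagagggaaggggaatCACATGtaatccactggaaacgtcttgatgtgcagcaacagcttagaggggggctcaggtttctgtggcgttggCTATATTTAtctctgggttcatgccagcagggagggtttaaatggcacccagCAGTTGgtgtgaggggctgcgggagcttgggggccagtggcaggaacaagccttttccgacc
Pax7, chr4:139832919-139833218, minus strand: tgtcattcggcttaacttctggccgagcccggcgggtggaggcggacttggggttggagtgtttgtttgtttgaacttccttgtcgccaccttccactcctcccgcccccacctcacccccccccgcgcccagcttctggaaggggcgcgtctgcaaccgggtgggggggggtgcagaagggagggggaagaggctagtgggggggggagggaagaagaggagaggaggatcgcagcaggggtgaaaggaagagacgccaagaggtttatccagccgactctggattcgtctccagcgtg
The Myog window held CANNTG starting 138 and 12 bases before the start, and CTANNNNTA starting 64 bases before it. The Pax7 window held neither set of letters. Of 32851 windows of this length, 72.3% held CANNTG, 39.6% held it at 2 or more places, and 21% held CTANNNNTA, so a match describes these letters and no binding.

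Of the other bHLH factors, Myf5, which starts the muscle lineage together with Myod1, was not well above background on any array, and no fold is given. Myod1 gave 1.56, 0.83 and 1.37 in the exercise mice and 1.37, 1.38 and 1.36 in the sedentary mice. The sedentary values lay within 0.016 of each other, and exercise mouse 2 alone lay below them. The difference of -0.12 (95% interval from -0.58 to 0.35, limma adjusted p = 0.692) became 0.098 without exercise mouse 2. Myf6, the factor of mature fibres, was at 4.30, 4.34 and 4.29 with exercise and at 4.32, 4.45 and 4.61 in sedentary mice. Those groups overlapped, and the difference was -0.15 (95% interval from -0.39 to 0.09, limma adjusted p = 0.322) with all arrays and -0.01 within the strip.

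The MEF2 factors were all higher with exercise by sign, by less than Pax7 was lower, and none passed the threshold. Mef2d gave 4.73, 4.89 and 4.85 with exercise and 4.58, 4.51 and 4.34 in sedentary mice, so the groups were separated by 0.15. The difference was 0.34 ± 0.10 (SE; limma adjusted p = 0.0624) and 0.24 within the strip, and 2 further Mef2d probes gave 0.29 and 0.14, the latter with overlapping groups. Mef2c gave 5.51, 5.47 and 5.63 against 5.41, 5.06 and 5.26. Here the gap between the groups was 0.063, the difference 0.30 ± 0.12 (SE; limma adjusted p = 0.121), 0.13 within the strip, and the other probe gave 0.23. Mef2a gave 3.82, 3.89 and 3.83 against 3.75, 3.79 and 3.73, which is a difference of 0.09 (95% interval from -0.09 to 0.28, limma adjusted p = 0.416). Its other probe pointed the opposite way, at -0.08 with overlapping groups. These signs depended on the scaling, since the median of all genes moved to -0.45 without scaling, where Mef2c was at -0.18 and Mef2d at -0.13, and Mef2a also changed sign under quantile normalization and in the deposited table. Relative to the median of all genes, Mef2c and Mef2d stayed higher under all 19 settings.

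**Figure D2:**
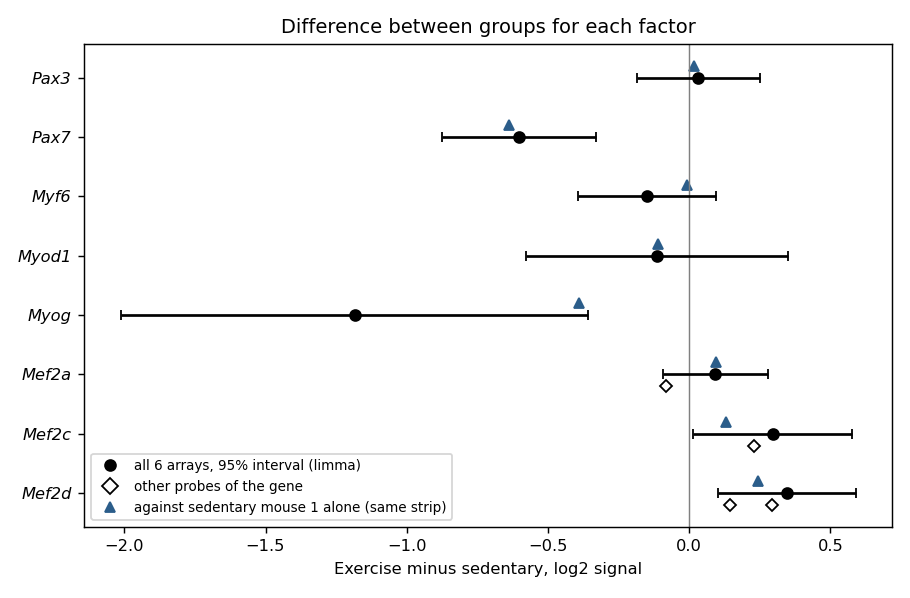
Exercise minus sedentary log2 signal (x axis) for each tested factor, with the 95% interval from limma on 6 arrays, the other probes of the gene as diamonds, and the difference from sedentary mouse 1 alone as triangles. The Pax7 interval lies below 0 and its triangle at -0.64 beside the full difference of -0.60, whereas the Myog triangle at -0.39 lies far from -1.18. The intervals of Myog (-2.01 to -0.36), Mef2c (0.015 to 0.58) and Mef2d (0.10 to 0.59) also exclude 0. The intervals are not adjusted for the number of genes tested.

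Of 15746 other named genes, the 3 with the pattern most like Pax7 over the 6 arrays were Fam120aos, 5031434O11Rik and Cilk1. The root mean square distance between their centred log2 values and those of Pax7 was 0.0546, 0.0546 and 0.0631, and their differences between groups were -0.53, -0.55 and -0.55.

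Genes that work with or under these factors were described from 6 lists written with earlier results of these data in view, so the counts describe the lists and give no independent evidence of direction. With strip as a block, limma called 0 genes of any of the 6 lists, and 3 lower and 0 higher over everything tested. Among 21 satellite cell and myoblast genes, 2 were called lower and 1 higher, 9.52% and 4.76% beside 6.12% and 11.5% of everything tested, with a median difference of -0.19 against 0.026. Megf10, a receptor of satellite cells, was -0.91 (SE 0.20, limma adjusted p = 0.0348), with -1.11, -1.28 and -0.95 in the exercise group and -0.61, -0.15 and 0.14 in the sedentary group, and it was -0.50 within the strip. Ncam1, an adhesion molecule of myoblasts and of fibres that have lost their nerve, fell by 0.77 (SE 0.13, limma adjusted p = 0.0238), and its 3 other probes gave -1.55, -0.71 and -1.20. Hes1, a Notch target that keeps satellite cells undifferentiated, rose by 0.95 (SE 0.15, limma adjusted p = 0.0234). The remaining 18 genes did not pass and lay on both sides, from -1.19 for Sox8 to 0.70 for Barx2, the extremes of those not called. This Sox8 probe was well above background on 1 of the 3 exercise arrays, and the other Sox8 probe gave -0.05. No macrophage, endothelial, fibro-adipogenic progenitor or proliferating cell marker was called in limma out of 23 genes. Of these 23, 0 had an unadjusted limma p under 0.05, beside 9249 of the 25005 genes and transcripts tested. The summed linear level of the proliferating cell markers, relative to the 75th percentile, was 2.37 to 2.79 with exercise and 2.15 to 4.01 in sedentary mice.

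Of 17 E proteins and inhibitors of the bHLH factors, 15 were not called, and over everything tested 20607 of 25005 were not. Limma called 2 of the 17 lower and 0 higher, 11.8% and 0% beside 6.12% and 11.5% of everything tested. At an unadjusted limma p under 0.05, 4 were lower and 2 higher, beside 9249 of all 25005 in either direction. The median was -0.11. The called pair were inhibitors that bind E proteins and keep them from DNA, Id2 at -0.96 (SE 0.21, limma adjusted p = 0.0331) and Id4 at -0.57 (SE 0.14, limma adjusted p = 0.0437), which were -0.59 and -0.28 within the strip. Id2 was 0.24, -0.06 and -0.32 with exercise and 0.54, 1.13 and 1.06 in sedentary mice, and no E protein gene passed the threshold.

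Homologues of sine oculis, Eya factors and other partner factors gave 7 genes called higher and 2 called lower of 19, which is 36.8% and 10.5% of the list beside 11.5% and 6.12% of everything tested. The list median was 0.13, and -0.027 with the mean of the probes or with the most variable probe. Dach2, a corepressor known to hold back Myog and to fall when a muscle loses its nerve, was well above background on all 3 exercise arrays and on 0 of the sedentary arrays, and was at least 2.72-fold higher with exercise. It entered the test through the exercise arrays alone, so its call is no support, and without it 6 of 18 genes were called higher. Its relative Dach1 fell by 0.53 (SE 0.08, limma adjusted p = 0.0234). Runx1, which rises in denervated fibres, fell by 1.29 (SE 0.28, limma adjusted p = 0.0323), with 0.56, 0.34 and 0.58 against 1.14, 2.03 and 2.18, and by 0.64 within the strip. The homeobox factors Six2 and Pitx3 rose by 1.03 (SE 0.25, limma adjusted p = 0.0411) and 0.89 (SE 0.20, limma adjusted p = 0.0339), and within the strip by 0.50 and 0.46. Tead1 at 0.46 and Srf at 0.44, named after their values were seen, were also called higher.

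Among 21 tested MEF2 coregulators and upstream kinases, 4 were called higher and 1 lower, with a median of 0.17. These counts were 19% and 4.76% of the list, beside 11.5% and 6.12% of everything tested. Map2k6, a kinase that activates p38, rose by 1.17 (SE 0.26, limma adjusted p = 0.0338), from 1.19, 0.68 and 0.29 in sedentary mice to 2.00, 1.56 and 2.13, and by 0.71 within the strip. Mapk14, the p38 kinase that phosphorylates MEF2 factors, rose by 0.54 (SE 0.12, limma adjusted p = 0.0364), and Ppp3cb, a catalytic subunit of calcineurin, by 0.58 (SE 0.14, limma adjusted p = 0.0413), and within the strip they differed by 0.30 and 0.37. Of the deacetylases that bind MEF2, Hdac4 fell by 0.63 (SE 0.15, limma adjusted p = 0.0376), and its 2 other probes gave -0.55 and -0.69. Hdac9, named after its value was seen, was called higher at 0.44, while Hdac5 at 0.27 and Hdac7 at 0.17 were not called. Mef2b and Camk4 could not be tested.

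**Figure D3:**
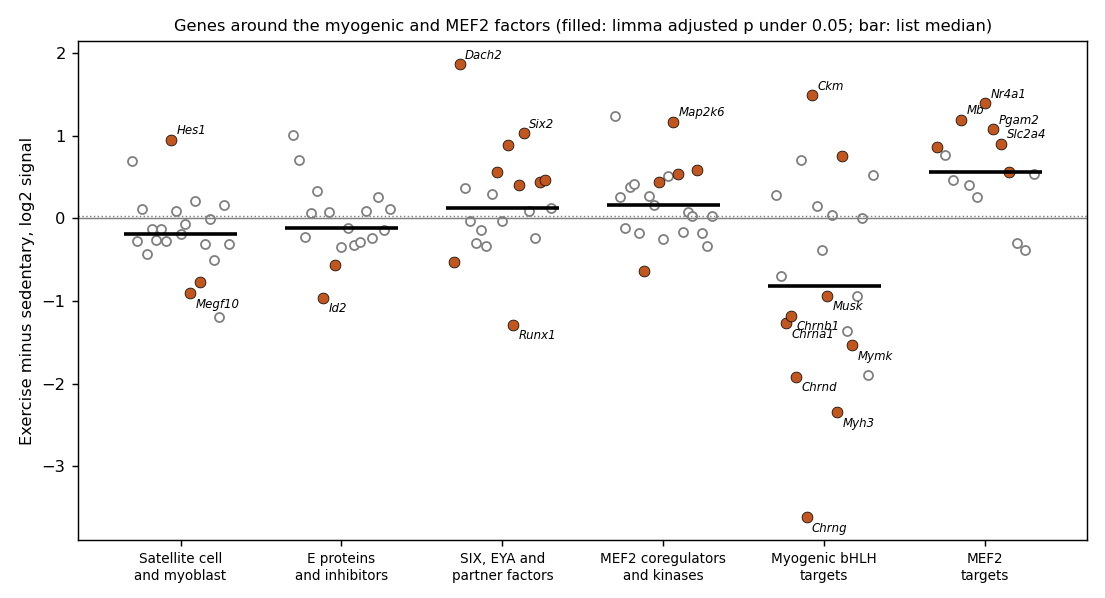
Exercise minus sedentary log2 signal (y axis) for every tested gene of the 6 lists (x axis), with genes at a limma adjusted p under 0.05 filled, the median of each list as a bar and the median of everything tested as a dotted line, and with Dach2, not well above background in sedentary mice, at its measured difference. The target genes of the bHLH factors spread from -3.62 for Chrng to 1.50 for Ckm, and the MEF2 targets have 6 called genes, all higher.

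The counts for known target genes ran in opposite directions in the 2 families, and the difference between the lists was not tested. Of 20 bHLH targets, 7 were called lower and 2 higher, 35% and 10% beside 6.12% and 11.5% of everything tested, with a median of -0.82. Of 13 MEF2 targets, 0 were lower and 6 higher by limma, 46.2% higher beside the same 11.5%, with a median of 0.56. At an unadjusted limma p under 0.05, 1 was lower and 10 higher, beside 9249 of all 25005 in either direction. The study itself named Chrng, Chrnd, Myh3 and Slc2a4 (Glut4) from these arrays, so they are no independent evidence of their lists' direction. Without sedentary mouse 1 the counts were 9 lower and 4 higher for bHLH targets and 0 and 8 for MEF2 targets. Over everything tested, 2060 of 25005 were then called lower and 3476 higher. Without any one of the other arrays limma called 0 genes of either list, and at most 1 lower and 0 higher over everything tested.

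Of the 7 lower bHLH targets, 4 encode subunits of the acetylcholine receptor. Chrng, the fetal receptor subunit, was -1.94, -1.56 and -1.11 with exercise and 0.28, 2.84 and 3.12 in sedentary mice, a difference of -3.62 (SE 0.75, limma adjusted p = 0.0304) that was -1.82 within the strip. Chrnd, the delta subunit, was 0.67, 0.76 and 0.82 against 1.62, 3.02 and 3.38, a difference of -1.92 (SE 0.44, limma adjusted p = 0.036) that was -0.87 within the strip. Myh3, embryonic myosin heavy chain, was -2.35 (SE 0.57, limma adjusted p = 0.0409) and -1.55 within the strip. Its other probe, well above background on 3 of 6 arrays, gave 0.92 (SE 0.84). The other 4, named after their values were seen, were the receptor subunits Chrna1 at -1.27 and Chrnb1 at -1.18, the fusion protein Mymk at -1.54 and the receptor tyrosine kinase Musk at -0.94. Within the strip these were -0.67, -0.53, -0.57 and -0.68. In all 7, as in Myog, sedentary mouse 1 had the lowest value among the sedentary mice, which held for 63.9% of everything called lower. The adult receptor subunit Chrne, at 0.71 (limma adjusted p = 0.0616), did not pass. The 2 called higher were Ckm, muscle creatine kinase, at 1.50 (SE 0.22, limma adjusted p = 0.0234), and Myh8, perinatal myosin heavy chain, at 0.75 and 0.43 within the strip. The other Myh8 probe was dim, well above background on 4 of 6 arrays, and gave -0.71 (SE 0.55). The brighter Myh8 probe had a mean log2 value of 9.82 over the 6 arrays, and whether it reads Myh8 alone was not tested.

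**Figure D4:**
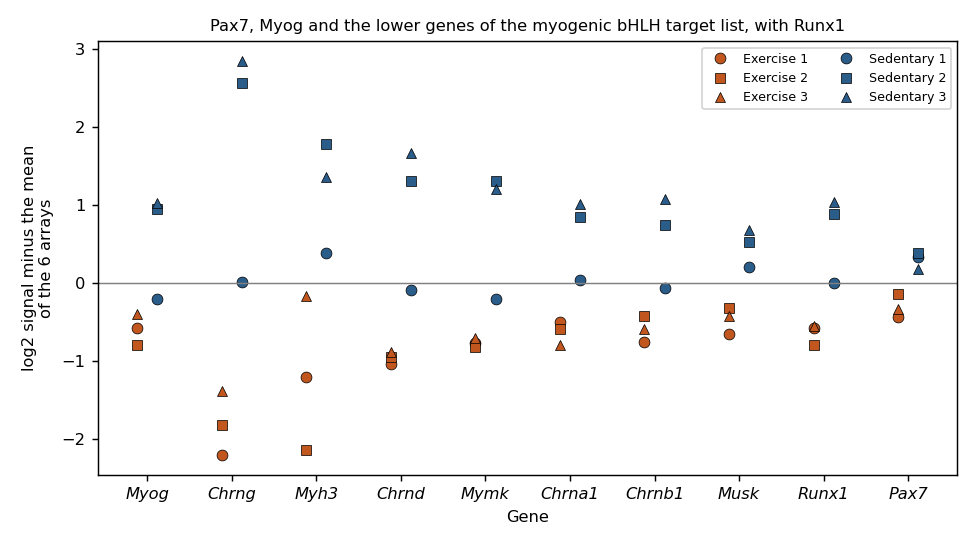
Log2 signal minus the mean of the 6 arrays (y axis) for Myog, 7 bHLH target genes called lower, Runx1 and Pax7 (x axis), with exercise mice in orange and sedentary mice in blue and 1 marker shape per mouse number. For Myog and the targets the circle of sedentary mouse 1 lies between the exercise arrays and sedentary mice 2 and 3, and for Pax7 it lies among the sedentary arrays.

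Of the MEF2 targets called higher, Nr4a1, an orphan nuclear receptor induced by activity, was 6.22, 6.48 and 7.29 with exercise and 5.65, 5.08 and 5.07 without, a difference of 1.40 (SE 0.31, limma adjusted p = 0.0338). Mb, myoglobin, rose by 1.20 (SE 0.18, limma adjusted p = 0.0234), and Pgam2, the muscle phosphoglycerate mutase, by 1.08 (SE 0.19, limma adjusted p = 0.024). The others, named after their values were seen, were the glucose transporter Slc2a4 at 0.91, Hrc at 0.86 and Smyd1 at 0.56, with 0.64, 0.43 and 0.27 within the strip. In all 6, sedentary mouse 1 had the highest value among the sedentary mice, which held for 79.5% of everything called higher. Of 10 skeletal muscle fibre markers 6 were called higher and 0 lower, 60% and 0% beside 11.5% and 6.12% of everything tested. Ckm and Mb are also in the target lists, and without them 4 of 8 (50%) were called higher. The markers' summed level relative to the 75th percentile was 4762 to 5529 with exercise and 2404 to 3409 in sedentary mice. Smooth muscle and pericyte markers summed to at most 43.0 with exercise and at least 47.1 in sedentary mice. Of 5, 1 was called lower (20%), Myh11 at -0.95, named after its value was seen. The extremes of this list, Cnn1 at -1.66 with overlapping groups and Rgs5 at 0.18, were not called. Schwann cell and nerve markers summed to 15.6 to 21.4 with exercise and 21.4 to 28.1 in sedentary mice, and 1 of 6 (16.7%) was called lower. Adipocyte markers summed to 121 to 245 with exercise and 180 to 228 in sedentary mice. Of these 5 markers 1 was called higher (20%), Lep at 0.35. The other 4 were lower by sign and not called, and the list median was -0.92. The 3 tested red blood cell markers summed to 210 to 303 and 127 to 273, with 0 called or at an unadjusted p under 0.05. The part of these shifts in the values of the factors and their targets was not tested.

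The promoter windows of Chrng and Pgam2 are shown as examples of the bHLH and MEF2 targets called lower and higher, with the same capitals as for Myog.
Chrng, chr1:87205561-87205860, plus strand: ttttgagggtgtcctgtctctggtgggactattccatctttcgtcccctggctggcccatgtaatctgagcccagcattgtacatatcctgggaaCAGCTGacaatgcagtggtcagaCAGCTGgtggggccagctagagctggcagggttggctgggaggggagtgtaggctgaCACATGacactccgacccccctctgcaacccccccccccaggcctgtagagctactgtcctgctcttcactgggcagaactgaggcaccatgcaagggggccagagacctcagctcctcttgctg
Pgam2, chr11:5803747-5804046, minus strand: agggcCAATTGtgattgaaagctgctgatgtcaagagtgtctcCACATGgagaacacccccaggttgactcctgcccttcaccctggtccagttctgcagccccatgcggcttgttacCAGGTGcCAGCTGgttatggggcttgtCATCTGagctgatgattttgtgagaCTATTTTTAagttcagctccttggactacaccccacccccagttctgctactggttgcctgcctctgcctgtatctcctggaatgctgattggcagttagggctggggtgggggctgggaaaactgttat
Chrng held CANNTG at 3 places, 2 of them in the form CAGCTG, starting 155 and 132 bases before the start, and no CTANNNNTA. Pgam2 held CANNTG at 5 places, 1 of them CAGCTG, and CTANNNNTA starting 80 bases before the start. The windows of Nr4a1 and Mb, MEF2 targets that rose by more than Pgam2, held no CTANNNNTA. Of the 15 bHLH targets with a window, 14 held CANNTG and 10 held CAGCTG, and 58.8% of their 17 windows held CAGCTG against 16.3% of all windows. Of the 9 MEF2 targets with a window, 6 held CTANNNNTA, in 54.5% of their 11 windows against 21% of all. Neither set of letters was particular to its list. CAGCTG was in 45.5% of the MEF2 target windows, and CTANNNNTA was in 35.3% of the bHLH target windows. These shares describe lists that were assembled as known targets, and genes called higher and lower both occur among the matches, as Ckm also holds CAGCTG.

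**Figure D5:**
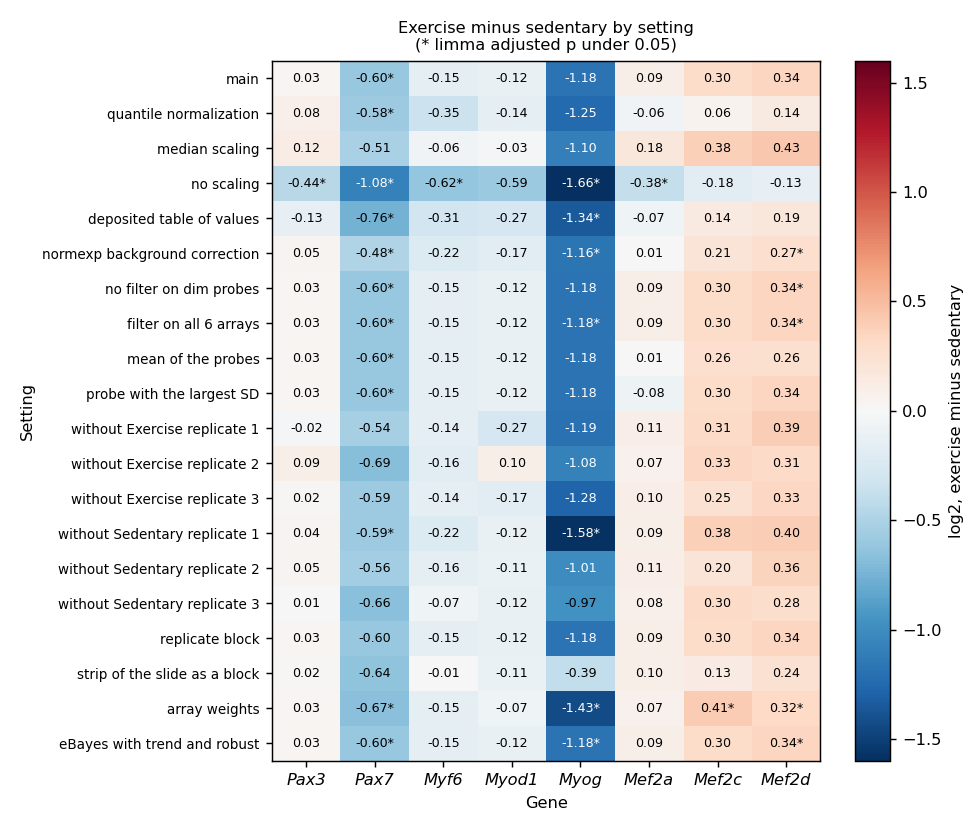
Exercise minus sedentary log2 signal of each tested factor (columns) under the reported setting and 19 alternatives (rows), with an asterisk for a limma adjusted p under 0.05. The Pax7, Myog and Myf6 columns are negative in every row, Myog between -1.66 and -0.39 and Myf6 between -0.62 and -0.01. The other factors change sign.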

How the data were processed

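RNA from 6 quadriceps was hybridized to single-dye Agilent arrays. The authors deposited 1 scanner file per array, made with Feature Extraction 12.1.0.3 per the file headers, whose processed signal is a background-subtracted intensity. A second deposited table holds the same intensity times 1 factor per array. Here, controls and outlier spots were dropped, and log2 values were set relative to the array's 75th percentile. A probe needed signal well above background on 3 of 6 arrays (32726 of 56605 did), and a gene was represented by its brightest probe. RefSeq transcripts gave the names. The test was limma 3.58.1 in R 4.3.3, two-sided, with Benjamini-Hochberg adjustment over 25005 genes and transcripts, checked on simulated arrays. An exact permutation test of 3 arrays against 3 cannot go below p = 0.1. Where no array of a group had a probe well above background, its fold is a lower bound, set by the dimmest detected probe of each such array.

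The factors, lists and markers were chosen with earlier results of these data known. Named were all factors, up to 3 called rises and falls per list, the 3 genes most like a called factor, and markers at the extremes of their list. Alternatives covered scaling, background correction, filters, probe choice, single arrays left out, blocks, array weights and variance settings. Some called genes of the lists are not reported here by name.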

Additional observations from a re-analysis of the deposited data

How the results depend on the processing

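The number of factors called lower was 1, and 0 were called higher. It was 0 lower with median scaling, with the strip as a block, and with a log2 fold change minimum of 1. It was 5 without scaling (Pax3, Pax7, Myf6, Myog and Mef2a), and 2 (Pax7 and Myog) in the deposited table, with normexp, with the filter on all 6 arrays, with array weights and with trend and robust variance. It ranged from 0 to 2 as each array was left out, with 2 only without sedentary mouse 1. The count higher was 1 (Mef2d) with normexp, without a filter, with the filter on all 6 arrays and with trend and robust variance, and 2 with array weights (Mef2c and Mef2d). Over all genes, limma called 1530 lower and 2868 higher, 2060 and 3476 without sedentary mouse 1, and at most 1 and 0 without any other array, where 6686 to 8146 had an unadjusted p under 0.05.

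Pax3 was -0.44 without scaling, -0.13 in the deposited table and -0.015 to 0.090 as arrays were left out, the lowest without exercise mouse 1. Mef2a was -0.059 with quantile normalization, -0.38 without scaling, -0.066 in the deposited table and -0.082 with its most variable probe. Without scaling Mef2c was -0.18 and Mef2d -0.13. Myod1 was -0.27 to 0.098 as arrays were left out, the highest without exercise mouse 2, and Myh8 was -0.71 with its most variable probe. The values without scaling and in the deposited table are the reported ones shifted alike for every gene, by their scaling alone, and for the rest the cause was not tested.

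List medians moved as follows. For satellite cell and myoblast genes the median was -0.27 with quantile normalization, -0.10 with median scaling, -0.67 without scaling, -0.35 in the deposited table, -0.25 with the most variable probe and -0.25 with the strip block, and -0.29 to -0.17 as arrays were left out. For E proteins and inhibitors it was -0.024 with median scaling, -0.58 without scaling, -0.27 in the deposited table, 0.0072 with normexp, -0.14 with the mean of the probes, -0.051 with the most variable probe and -0.025 with array weights, and -0.19 to -0.041 as arrays were left out. For Eya, sine oculis-related and partner factors it was 0.21 with median scaling, -0.35 without scaling, -0.032 in the deposited table, -0.027 with the mean of the probes or the most variable probe and 0.22 with array weights, and 0.087 to 0.20 as arrays were left out. For MEF2 coregulators it was 0.056 with quantile normalization, 0.26 with median scaling, -0.30 without scaling, 0.010 in the deposited table, 0.10 with normexp, -0.022 with the strip block and 0.23 with array weights, and 0.11 to 0.26 as arrays were left out. For bHLH targets it was -1.29 without scaling and -0.38 with the strip block, and for MEF2 targets 0.085 and 0.33.

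Replicate numbers are shared by the groups, but the deviations of same-numbered arrays correlated at 0.015, 0.085 and 0.036, so the numbers were not taken to pair the mice. With the replicate block, 0 factors were called instead of 1, and 0 of all genes were called although 8591 had an unadjusted p under 0.05.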
